A study of Mus musculus with 2 samples.

Results

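Pericytes and other mural cells of the hippocampus were taken as the 288 of 20594 nuclei that passed a rule on 5 mural genes, in single-nucleus RNA sequencing libraries of 2 genotypes, PS19 and PZKO, from males aged 9 months. Both groups carried 1 copy of the PS19 transgene, which expresses human P301S tau under the prion promoter and drives tau pathology. PS19 mice were PS19+/- *Zbp1*+/+, and PZKO mice were PS19+/- *Zbp1*-/-, with both copies of the gene for the nucleic acid sensor ZBP1 knocked out. Each genotype was represented by 1 library, pooled from 5 mice, and no animal label is carried by the counts. Mice without the tau transgene were not part of these libraries. All differences below therefore compare 2 libraries, no test between genotypes is possible, and the 95% intervals given cover counting error only.

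Mural cells wrap the endothelial tube of brain vessels. Pericytes lie within the basement membrane of capillaries, where endothelial PDGF-B acting on PDGFRB keeps them in place, whereas smooth muscle cells ring arterioles and constrict them with an actin and myosin apparatus. Both types share NOTCH3 and PDGFRB. Brain pericytes also hold the KATP channel formed by *Kcnj8* and *Abcc9*, and they contribute to the barrier and to the control of capillary flow.

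Members were nuclei in which 5 mural genes together made up at least 10 of every 10000 unique molecular identifiers (UMIs): *Rgs5*, an inhibitor of G protein signaling, *Abcc9*, the sulfonylurea receptor of the KATP channel, *Atp13a5*, a P-type ATPase of brain pericytes, *Notch3*, and *Pdgfrb*. The endothelial sum (*Flt1*, *Ptprb*, *Adgrl4*), the fibroblast sum (*Lama1*, *Slc6a13*, *Dcn*) and the oligodendrocyte sum (*St18*, *Prr5l*) each had to stay under 10. The rule found 288 of the 20594 nuclei that had 600 UMIs or more from 300 genes or more, with no more than 5% of them mitochondrial. There were 142 members among 10466 PS19 nuclei (1.36%, exact binomial 95% interval 1.14 to 1.60) and 146 among 10128 PZKO nuclei (1.44%, 1.22 to 1.69), so the intervals of the shares overlapped. Members held 447348 UMIs in PS19 and 695162 in PZKO, with medians of 2577.5 and 3142 UMIs per nucleus. Of the barcodes, 47 occurred in both libraries and 0 of these were members.

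Levels of the 5 rule genes are what chose these nuclei and are given as a description. The PS19 members contained 98 nuclei with 10 or more rule-gene UMIs and 10 nuclei with just 1, and the PZKO members contained 119 and 5. All 5 genes were detected in 64 PS19 and 68 PZKO members. Close to the threshold, 7 PS19 and 7 PZKO nuclei had a sum between 10 and 11 and were members, and 11 PS19 and 6 PZKO nuclei with a sum between 9 and 10 were not.

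All 20594 nuclei were also clustered, which gave 31 clusters. The mural cluster was taken as the 1 with a median rule-gene sum of at least 10 per 10000 UMIs (91.4 over its 272 nuclei). The rule genes chose this cluster, so its high sum is no separate check of the label. Genes that led it over all other nuclei included *Acta2* and *Myh11* of smooth muscle, the rule gene *Abcc9*, and *Kcnj8* of pericytes. Others were the smooth muscle long noncoding RNA *Carmn*, and *Tbx3os1*, *Slc38a11*, *Pla1a* and *Aspn*. The mural cluster held 103 of the 142 PS19 members and 117 of the 146 PZKO members. The other 39 PS19 and 29 PZKO nuclei met the rule but fell in other clusters, so the label is in doubt for them. Of these, 13 PS19 and 9 PZKO nuclei lay in clusters led by astrocyte markers, 11 and 5 in a cluster of very shallow nuclei, 3 and 6 among leptomeningeal fibroblasts and 3 and 5 among excitatory neurons. Their rule-gene sums were mostly low, with medians of 12.9 in PS19 and 14.3 in PZKO, against 102 and 100.5 in the cluster. The highest sums among them were 52.0 in PS19 and 132.85 in PZKO, so some may be mural nuclei that the clustering placed elsewhere.

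The nuclei outside the cluster weighed heavily on sums over all members. In PZKO they supplied 327780 of the members' 695162 UMIs, and 12 nuclei of more than 10000 UMIs held 75.1% of that amount. In PS19 they supplied 158646 of 447348 UMIs, and 2 such nuclei held 19.7% of them. Values are therefore given for the 220 members in the mural cluster, and those of all 288 members follow the account of single genes. The cluster members held 288702 UMIs in PS19 and 367382 in PZKO, with medians of 2451 and 2944 per nucleus.

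**Figure D1:**
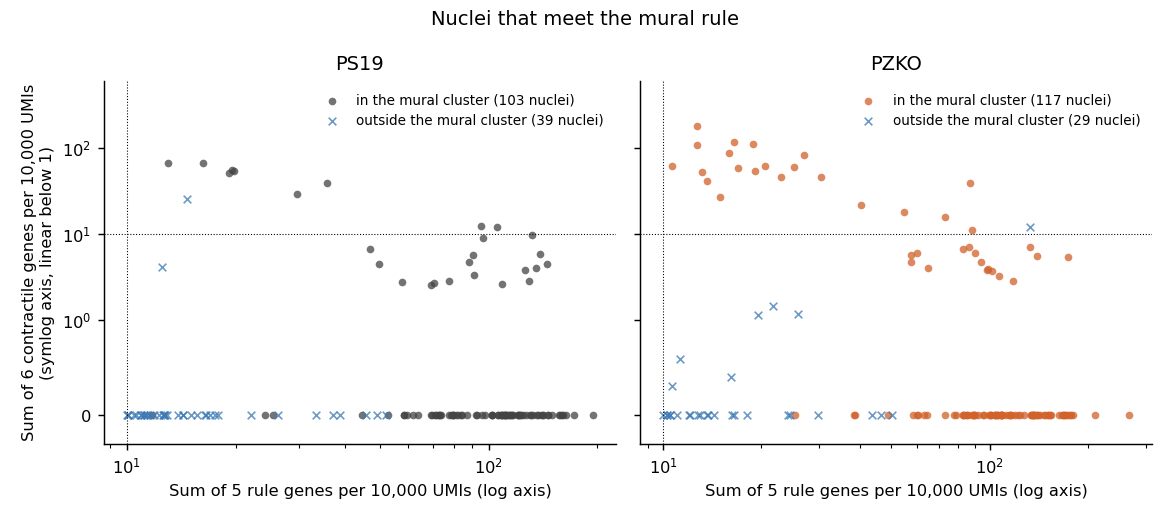
Each point is 1 nucleus that met the mural rule, placed by its rule-gene sum (log axis) and its contractile-gene sum (symlog axis, linear below 1), both per 10000 UMIs, with PS19 on the left and PZKO on the right. Nuclei outside the mural cluster (crosses, 39 in PS19 and 29 in PZKO) gather near the rule threshold of 10, and most contractile nuclei of the cluster sit at low rule-gene sums.

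Contractile and non-contractile kinds of mural nucleus were seen in the cluster. Nuclei were called contractile when *Acta2*, *Myh11*, *Tagln*, *Cnn1*, *Lmod1* and *Myocd*, genes of the smooth muscle actin and myosin apparatus and of the coactivator that switches it on, made up at least 10 of every 10000 UMIs. This sum is a cut through a range, and 7 PS19 and 9 PZKO cluster members had a sum between 5 and 15. Among the cluster members, 9 of 103 PS19 nuclei were contractile (8.74%, 4.07 to 15.9) and 21 of 117 PZKO nuclei (17.9%, 11.5 to 26.1). After each nucleus was thinned to 1000 UMIs, the shares were 15 of 100 PS19 nuclei (8.65 to 23.5%) and 24 of 110 PZKO nuclei (21.8%, 14.5 to 30.7). At that depth a single contractile UMI meets the cut, so the thinned class is looser. The PZKO share was the higher in both counts, and the intervals overlapped in both.

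The rule passed over many smooth muscle nuclei. Contractile members had median rule-gene sums of 19.7 in PS19 and 19.1 in PZKO, close to the threshold. Of the nuclei in the cluster that fell under it, 8 of 10 in PS19 and 12 of 12 in PZKO were contractile. Over the whole cluster, whether or not the rule was met, 18 of 125 PS19 nuclei (14.4%, 8.76 to 21.8) and 36 of 147 PZKO nuclei (24.5%, 17.8 to 32.3) were contractile, and 15.2% and 23.7% without putative doublets. *Acta2* read 390 CPM (counts scaled to 1000000 summed UMIs) in PS19 and 643 in PZKO over that whole cluster, and *Myh11* 580 and 1358.

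Rule-gene levels in the contractile and other members are given as a description, since the rule chose both by the sum of these genes. Contractile nuclei of the cluster under the threshold are not among them. *Atp13a5* read 4759 CPM in the non-contractile PS19 members of the cluster and 5745 in the PZKO ones, against 577 and 171 CPM in the contractile ones. *Abcc9* likewise read 984 and 1472 CPM against 57.7 and 39.5. *Notch3* did not separate them, at 1362 and 1404 CPM in non-contractile and 1211 and 1408 CPM in contractile nuclei. *Ebf1*, a transcription factor of the mural lineage and not a rule gene, was even, at 3074 and 3377 against 3346 and 3434 CPM. *Prkg1*, the cGMP-dependent kinase through which nitric oxide relaxes smooth muscle, was higher in contractile nuclei, at 7067 and 7277 against 3381 and 4214 CPM.

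The levels of the rule genes chose these nuclei in both libraries and say nothing of a difference between genotypes. *Pdgfrb* counted 467 UMIs in PS19 and 594 in PZKO, a log2 ratio of PZKO over PS19 of 0.00 (-0.18 to 0.18), and *Notch3* 388 and 516 UMIs, a log2 ratio of 0.06 (-0.13 to 0.26). *Atp13a5*, the most abundant of the 5, counted 1229 and 1687 UMIs, a log2 ratio of 0.11 (0.00 to 0.22). Of 18 further pericyte genes, 17 had at least 10 UMIs, with a median log2 ratio of 0.05, beside -0.03 over all 8839 genes with that many UMIs. Of the 16 with at least 50 UMIs, 0 were at least 1.5-fold higher in PZKO and 2 at least 1.5-fold lower. Across all 2764 genes with at least 50 UMIs in the cluster, 9.7% were that much higher and 8.86% that much lower.

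*Abcc9*, at chr6:142587862-142702315 on the minus strand (GRCm38, ENSMUSG00000030249), is a rule gene, so its values describe nuclei it helped to choose and support no difference between the genotypes. It counted 252 UMIs in the PS19 and 432 in the PZKO members of the cluster, or 873 and 1176 CPM, a log2 ratio of 0.43 (0.20 to 0.66). In the non-contractile nuclei, which held nearly all of it, the counts were 250 and 429 UMIs and the log2 ratio was 0.58 (0.35 to 0.81). The nuclei overlapped widely, with quartiles of 3.45 and 16.3 per 10000 UMIs around a median of 8.75 in PS19 and quartiles of 4.61 and 16.1 around a median of 10.52 in PZKO. A UMI of *Abcc9* was present in 59.0% of thinned PS19 nuclei of the cluster (48.7 to 68.7) and in 51.8% of PZKO ones (42.1 to 61.5). The thinned background share in all other nuclei was 0.339% and 0.225%. Over all 288 members the log2 ratio was 0.13 (-0.09 to 0.35). It was -0.17 when nuclei were thinned before the rule was applied, a looser set in which a single rule-gene UMI reaches the threshold (359 PS19 and 393 PZKO nuclei). *Kcnj8*, the pore of the same channel, counted 57 and 75 UMIs in the cluster, a log2 ratio of 0.05 (-0.47 to 0.57).

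*Rgs5*, also a rule gene, is likewise given as a description. Cluster members held 357 UMIs of it in PS19 and 338 in PZKO, and the log2 ratio was -0.43 (-0.65 to -0.21). A single contractile nucleus of PS19 supplied 81.3% of the 75 *Rgs5* UMIs of the contractile nuclei in that library. In the non-contractile nuclei *Rgs5* read 1110 and 1112 CPM, a log2 ratio of 0.00 (-0.23 to 0.24). *Vtn*, which encodes the matrix protein vitronectin secreted by pericytes, counted 520 and 521 UMIs in the cluster, a log2 ratio of -0.34 (-0.52 to -0.17), and its non-contractile log2 ratio was -0.15 (-0.33 to 0.03). *Art3*, a cell surface protein of the ADP-ribosyltransferase family, and *Pla1a*, a phospholipase, had log2 ratios of 0.44 (0.10 to 0.79) and 0.50 (0.00 to 1.01).

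**Figure D2:**
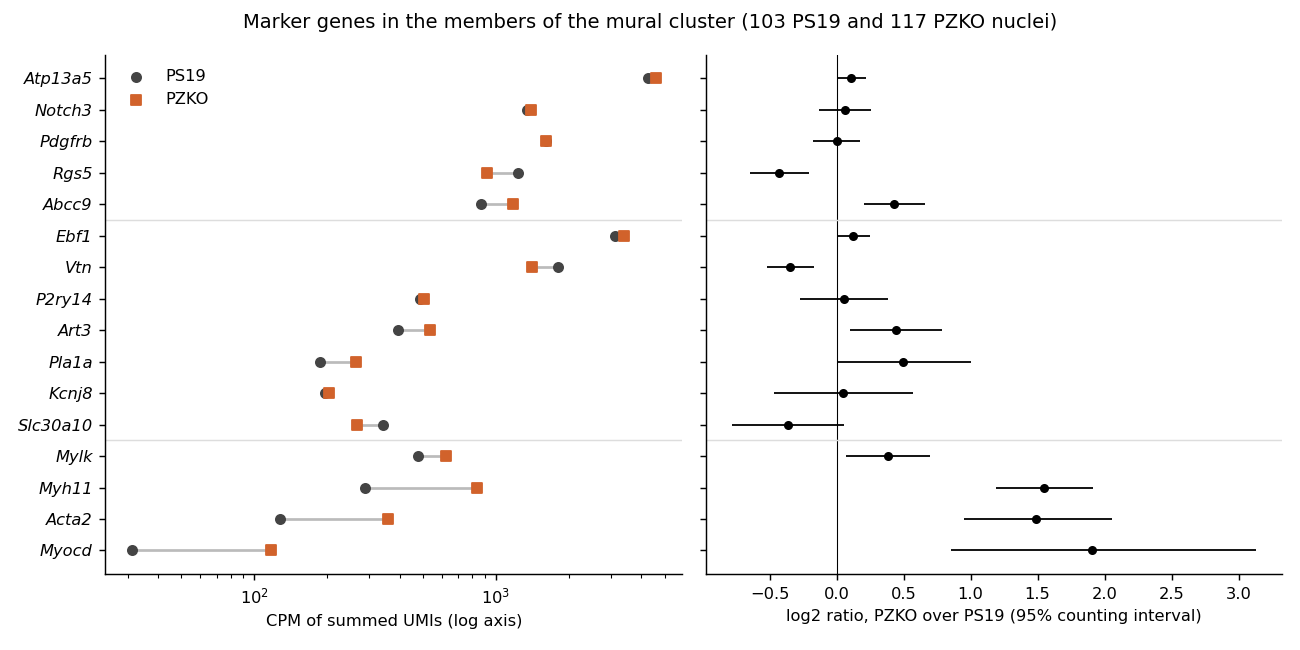
Levels of rule genes (top), further pericyte genes (middle) and smooth muscle genes (bottom) in the mural cluster members, as CPM of the summed UMIs on a log axis (left), and the log2 ratio of PZKO over PS19 with its 95% counting interval (right). The rule genes chose the nuclei and are shown as a description, and *Myh11*, *Acta2* and *Myocd* have the highest ratios shown.

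Some smooth muscle genes were higher in the PZKO members of the cluster. The contractile list summed to 451 UMIs in PS19 and 1034 in PZKO, of which 206 and 239 lay in non-contractile nuclei. *Myh11*, the smooth muscle myosin heavy chain (chr16:14194535-14291372, minus strand, ENSMUSG00000018830), counted 83 UMIs in PS19 and 308 in PZKO, a log2 ratio of 1.54 (1.19 to 1.91), and *Acta2*, smooth muscle actin (chr19:34241090-34255590, minus strand, ENSMUSG00000035783), 37 and 132 UMIs, a log2 ratio of 1.49 (0.95 to 2.05). Over the members with a rule-gene sum of at least 50, which leaves out most contractile nuclei, *Myh11* was at -0.034 and *Acta2* at -0.96. *Myocd*, which encodes the coactivator myocardin, counted 9 and 43 UMIs in the cluster. The *Acta2* counts came from 6 PS19 and 17 PZKO nuclei, and 1 PS19 nucleus held 43.2% of those in its library. Of the 15 contractile genes 13 had at least 10 UMIs, with a median log2 ratio of 1.11, 12 above 0 and 1 below, and of 8 with at least 50 UMIs 4 were at least 1.5-fold higher and 0 lower. The gene below 0 was *Tagln*, the actin-binding protein SM22, with 27 and 30 UMIs and a log2 ratio of -0.20 (-1.0 to 0.61). In the non-contractile nuclei *Acta2* was at 0 UMIs in both libraries and *Myh11* had a log2 ratio of -0.28 (-1.29 to 0.73). The cut uses these genes, so their level in the nuclei left is fixed in part by it, and fewer nuclei of that kind in the tissue and fewer recovered from it cannot be told apart.

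Several genes outside the 6 that made the cut also had higher ratios with the contractile nuclei than without. Without those nuclei, 8.77% of 2257 genes with at least 50 UMIs were at least 1.5-fold higher in PZKO and 7.89% lower. *Kcnab1*, a potassium channel subunit, counted 92 UMIs in PS19 and 338 in PZKO, of which 85 and 331 lay in contractile nuclei, and its log2 ratio was 1.53 (1.19 to 1.88) with them and -0.20 (-1.94 to 1.54) without. *Thsd4*, a microfibril-associated protein, gave 2.17 (1.49 to 2.91) and -0.20 (-1.71 to 1.31), and *Pde3a*, a phosphodiesterase that breaks down cAMP, 0.80 (0.52 to 1.09) and 0.25 (-0.22 to 0.73). *Ryr2* and *Kcnma1*, the ryanodine receptor and the large-conductance potassium channel that pair calcium sparks with relaxation, had log2 ratios of 0.98 (0.37 to 1.63) and 0.96 (0.49 to 1.46), which were -0.46 (-1.83 to 0.88) and -0.05 (-1.04 to 0.96) without the contractile nuclei. *Angpt1*, the TIE2 ligand, gave 1.35 (0.68 to 2.08) and 0.32 (-0.74 to 1.41).

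Within the contractile nuclei, which were few, levels were uneven. *Myh11* read 1846 CPM in the 9 PS19 nuclei and 3816 CPM in the 21 PZKO nuclei, with medians of 17.9 and 27.4 per 10000 UMIs and overlapping quartiles (9.83 to 22.3 and 18.3 to 45.5). The cut uses *Myh11*, so its level in these nuclei is set in part by the cut and is given as a description. *Adamtsl1*, an extracellular protein of the ADAMTS-like family, counted 2 UMIs there in PS19 and 63 in PZKO. *Fgf13*, which encodes an intracellular regulator of sodium channels, counted 3 and 69 UMIs. Of all cluster members, 2 PS19 and 15 PZKO nuclei held a UMI of *Adamtsl1*, and 7 and 15 a UMI of *Fgf13*.

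**Figure D3:**
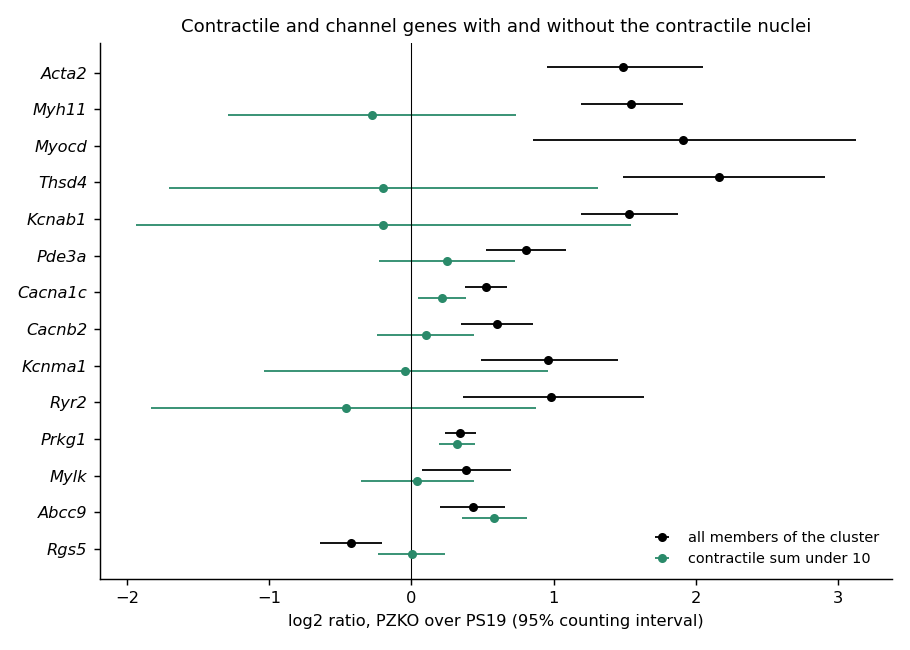
Log2 ratios of PZKO over PS19 with 95% counting intervals for contractile, channel and signaling genes, over all mural cluster members (black) and over those with a contractile sum under 10 (green). *Myh11*, *Thsd4*, *Kcnab1*, *Kcnma1* and *Ryr2* lose their positive ratio without the contractile nuclei, *Prkg1* keeps its own, and *Acta2* and *Myocd* had too few counts there for a ratio.

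The promoters of 12 of the 15 contractile genes, not those of *Myh11*, *Tagln* and *Myocd*, were searched for the CArG box, the element bound by serum response factor with myocardin, on both strands from 250 bases before to 50 after the start (RefSeq, GRCm38.p6). Only the exact form CCWWWWWWGG, where W is A or T, was counted. That form was present in 1 of these 12 promoters, that of *Myl9*, and in 1.63% of all 32851 promoters. Forms with a mismatch, such as ccctatatgg and ccttgtttgg in the *Acta2* promoter below, were not counted, so a promoter without the exact form may still hold a CArG-like element. The motif GTGGGAA, a core of RBPJ sites in Notch target genes, was in 0 of those 12 promoters, in 1 of 17 promoters of Notch pathway genes, and in 6.38% of all promoters. *Myl9*, the regulatory myosin light chain, counted 48 and 63 UMIs in the cluster, a log2 ratio of 0.04 (-0.52 to 0.62), and was named here for its motif. Both promoters are shown 5′ to 3′ on the coding strand because they belong to a contractile gene with the motif and to one with a high ratio and no exact match, and capitals mark the CArG box. *Acta2* lies on the minus strand at chr19:34255324-34255623 and *Myl9* on the plus strand at chr2:156775214-156775513.
Myl9: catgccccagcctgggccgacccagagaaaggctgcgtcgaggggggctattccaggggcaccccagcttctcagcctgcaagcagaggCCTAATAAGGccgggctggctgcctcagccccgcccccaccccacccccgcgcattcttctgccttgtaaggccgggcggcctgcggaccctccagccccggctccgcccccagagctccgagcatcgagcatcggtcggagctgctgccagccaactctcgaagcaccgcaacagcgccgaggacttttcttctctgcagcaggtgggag
Acta2: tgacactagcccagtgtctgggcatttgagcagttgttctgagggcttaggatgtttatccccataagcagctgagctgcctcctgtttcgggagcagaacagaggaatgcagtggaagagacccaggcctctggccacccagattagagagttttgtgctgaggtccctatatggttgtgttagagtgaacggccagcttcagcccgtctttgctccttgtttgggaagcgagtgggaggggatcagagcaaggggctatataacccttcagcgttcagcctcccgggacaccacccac

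Of 24 genes of ion channels and calcium handling 22 had at least 10 UMIs, with a median log2 ratio of 0.42, 18 above 0 and 4 below. Of 16 with at least 50 UMIs 3 were at least 1.5-fold higher and 0 lower, and the median was 0.09 in the non-contractile nuclei. The list holds the rule gene *Abcc9*, and without it the medians were 0.41 and 0.078, with 17 above 0 and 3 of 15 at least 1.5-fold higher. *Cacna1c*, the L-type calcium channel through which depolarized mural cells constrict, counted 578 and 1056 UMIs, a log2 ratio of 0.52 (0.37 to 0.67), and 0.22 (0.05 to 0.39) without contractile nuclei. Its partner *Cacnb2* gave 0.60 (0.35 to 0.85) and 0.10 (-0.24 to 0.44). *Ano1*, the calcium-activated chloride channel of capillary pericytes, counted 267 and 362 UMIs, a log2 ratio of 0.09 (-0.14 to 0.33), and *Itpr1*, the calcium release channel of the endoplasmic reticulum, 231 and 363 UMIs, a log2 ratio of 0.30 (0.06 to 0.55).

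Vasoactive receptors and the cGMP pathway had a median log2 ratio of 0.06 over 18 genes in the cluster, and of -0.26 over all 288 members, where 15 of 19 genes were below 0. *Prkg1* was higher in PZKO, at 1104 and 1781 UMIs, a log2 ratio of 0.34 (0.23 to 0.45) that was 0.32 (0.19 to 0.45) without contractile nuclei. Its median per non-contractile nucleus was 27.1 per 10000 UMIs in PS19 and 38.8 in PZKO, with overlapping quartiles (15.3 to 43.3 and 27.5 to 54.9). Over all 288 members, however, the log2 ratio of *Prkg1* was 0.02 (-0.09 to 0.12). *Rock1*, a kinase that sustains contraction, gave 0.54 (0.20 to 0.89) in the cluster. *Gucy1a2*, a nitric oxide receptor subunit, *Ednra*, the endothelin receptor, and *P2ry14*, a receptor for UDP-sugars, were at 0.06 (-0.16 to 0.28), -0.09 (-0.41 to 0.24) and 0.05 (-0.27 to 0.38).

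In PDGF signaling, the ligand gene *Pdgfd* counted 15 UMIs in PS19 and 48 in PZKO, mostly in contractile nuclei (14 and 37), whereas *Ptpn11*, the phosphatase SHP2 downstream of the receptor, counted 51 and 35 UMIs, a log2 ratio of -0.89 (-1.55 to -0.24). The median of 11 genes was -0.35, and the same over the 10 left without the rule gene *Pdgfrb*. Notch signaling had a median of 0.00 over 13 genes and of -0.044 over the 12 left without the rule gene *Notch3*, with its target *Heyl* at -0.13 (-0.75 to 0.50) and *Hey2* at -0.52 (-1.13 to 0.08), and the coactivator *Maml2* at 0.21 (0.02 to 0.41). TGF-beta and BMP signaling had a median of -0.14 over 23 genes. Its *Tgfbr1* counts of 36 and 24 came from 14 nuclei in each library, and the log2 ratio of -0.93 (-1.74 to -0.15) was -0.24 (-1.33 to 0.87) without putative doublets and nuclei over 10000 UMIs. *Ltbp1*, which stores latent TGF-beta in the matrix, had 0.87 (0.32 to 1.45), and 0.09 in non-contractile nuclei. Angiopoietin and VEGF signaling had a median of -0.56 over 6 genes.

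The basement membrane and integrin list had a median of 0.14 over 26 genes in the cluster and -0.15 over all 288 members, and of 21 with at least 50 UMIs 3 were at least 1.5-fold higher and 1 lower, or 2 and 2 without putative doublets and nuclei over 10000 UMIs. *Lamc1*, the laminin gamma-1 chain found in most laminins, counted 128 and 226 UMIs, a log2 ratio of 0.47 (0.15 to 0.80), and 0.55 (0.21 to 0.88) in non-contractile nuclei. *Col4a4*, a collagen IV chain, counted 25 and 62 UMIs in 17 and 43 nuclei, a log2 ratio of 0.96 (0.27 to 1.69), while *Col4a5* was at -0.68 (-1.27 to -0.10). *Itga1*, the alpha subunit of a collagen and laminin receptor, counted 312 and 469 UMIs, a log2 ratio of 0.24 (0.03 to 0.45). Of the fibrillar matrix list 7 of 16 genes had at least 10 UMIs and 6 were below 0, with a median of -0.83, beside -0.33 over all 288 members and 0.09 in all other nuclei. Of its genes 2 reached 50 UMIs in the cluster. *Mgp*, an inhibitor of calcification, counted 43 and 24 UMIs, a log2 ratio of -1.19 (-1.97 to -0.44), and its ratio in all other nuclei was -1.18.

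*Slc22a8*, the organic anion transporter OAT3 (chr19:8591254-8611835, plus strand, ENSMUSG00000063796), was lower in PZKO, with 105 UMIs over 52 PS19 nuclei and 77 over 38 PZKO nuclei, a log2 ratio of -0.80 (-1.24 to -0.36) and -0.63 (-1.08 to -0.19) in non-contractile nuclei. Its ratio in all other nuclei was 0.13. *Slc16a12*, a creatine transporter, counted 204 UMIs in each library, a log2 ratio of -0.35 (-0.63 to -0.06). *Slc6a20a* and *Slc38a11*, amino acid transporters, were at 0.06 (-0.14 to 0.26) and 0.05 (-0.15 to 0.26). The list had a median of -0.13 over 15 genes, and of -0.14 over the 14 left without the rule gene *Atp13a5*. *Ggt5*, a gamma-glutamyltransferase named for its high level in members over other nuclei, counted 55 and 118 UMIs in 41 and 62 nuclei, a log2 ratio of 0.75 (0.28 to 1.24) and 0.93 (0.45 to 1.42) in non-contractile nuclei.

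*Zbp1* itself was too sparse in mural nuclei to compare. It had 0 UMIs in the members of either library, and 3 UMIs, the limit that a count of 0 allows, would be 6.71 CPM in PS19 and 4.32 CPM in PZKO. In all other nuclei it counted 109 UMIs in PS19 and 50 in PZKO (0.967 and 0.296 CPM), so a mural level of that size was not detectable at this depth. Whether the *Zbp1* UMIs that remained in the PZKO library lie in the deleted part of the gene was not tested, and endothelial nuclei held 2 UMIs in PS19 and 3 in PZKO. The ZBP1 and necroptosis list had a median of -0.35 over 4 genes. *Tbk1*, the kinase that activates IRF3, counted 29 and 27 UMIs, a log2 ratio of -0.45 (-1.26 to 0.36). *Irf3*, a transcription factor of interferon induction, counted 16 and 34, a log2 ratio of 0.74 (-0.16 to 1.70), and was the 1 gene of the 2 with at least 50 UMIs that was at least 1.5-fold higher, with 0 lower. *Ripk1*, a kinase of the necroptosis pathway, counted 10 and 10. Of 30 interferon-stimulated genes 19 had at least 10 UMIs, with a median of -0.35, and 15 were below 0, whereas the median was 0.40 in endothelial nuclei and 0.04 in all other nuclei.

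Antigen presentation genes were sparse. Of 11 genes 6 had at least 10 UMIs, with log2 ratios from -1.63 to -0.45 and a median of -1.19, and 0 reached the 50 UMIs needed for a 1.5-fold call. *B2m*, the invariant chain of MHC class I, counted 34 UMIs in PS19 and 14 in PZKO, a log2 ratio of -1.63 (-2.64 to -0.69), and the class I heavy chain *H2-D1* 30 and 15 UMIs, a log2 ratio of -1.35 (-2.35 to -0.41). The counts came from 24 and 13 nuclei for *B2m* and from 25 and 13 for *H2-D1*. All 11 genes were also below 0 in all other nuclei, with a median of -0.55, as were 6 of 11 in endothelial nuclei (median -0.41), or 5 of 11 (median 0.13) without putative doublets and nuclei over 10000 UMIs, and microglial markers moved with them in the mural cluster. These markers summed to 128 UMIs in PS19 and 52 in PZKO (443 and 142 CPM). Of the 8 markers 6 were measured, all 6 with a log2 ratio below 0, and 1 had no UMI in either library. Without putative doublets and nuclei over 10000 UMIs the microglial sums were 256 and 151 CPM, and the median of the antigen presentation list was -1.07 over 5 genes. The part of microglial RNA in the result was not tested.

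Among inflammatory signals, *Il34*, a ligand of the CSF1 receptor, was the most abundant, at 191 and 198 UMIs, a log2 ratio of -0.30 (-0.59 to 0.00), and -0.13 (-0.44 to 0.17) in non-contractile nuclei. *Osmr*, the oncostatin M receptor, was at 0.08 (-0.40 to 0.58) and *Nfkb1* at -0.06 (-0.62 to 0.51). The median of 12 cytokine and adhesion genes was -0.02 in the mural cluster and -0.56 in all other nuclei.

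Several lists with low medians in PZKO were low outside the mural cluster as well. Ribosomal protein genes had a median of -0.41 in the cluster, with 66 of 81 below 0, -0.20 in its non-contractile nuclei, and -0.55 in all other nuclei. Oxidative phosphorylation genes had -0.30 and -0.59, and immediate early and stress genes -0.45 and -0.69, with the chaperones *Hspa8* at -0.94 (-1.49 to -0.40) and *Hsp90ab1* at -0.62 (-0.99 to -0.25). *Tmsb4x*, an actin-sequestering peptide, counted 101 and 58 UMIs, a log2 ratio of -1.15 (-1.64 to -0.67), and -0.83 in all other nuclei. Mitochondrially encoded genes had a median of -0.41 over all 288 members, where 12 of 12 were below 0, and of -0.08 in the mural cluster, -0.10 in endothelial nuclei and -0.78 in all other nuclei. The median of 9 nuclear long noncoding RNAs was -0.085, or 0.16 over 8 without putative doublets and nuclei over 10000 UMIs, with *Malat1* at -0.07 (-0.09 to -0.04).

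RNA of other cell types was present in these nuclei. *Ttr*, the transthyretin gene of the choroid plexus, was the lowest named transcript without putative doublets and nuclei over 10000 UMIs. In the cluster it counted 280 UMIs in 94 PS19 nuclei and 41 UMIs in 33 PZKO nuclei, a log2 ratio of -3.12 (-3.63 to -2.64). All other nuclei gave -2.79 (411 and 59.2 CPM) and endothelial nuclei -2.72. Summed choroid plexus markers read 1029 CPM in PS19 and 128 in PZKO cluster members, oligodendrocyte markers 1216 and 1083, excitatory neuron markers (*Syt1* highest) 1095 and 985, endothelial markers (*Flt1* highest) 308 and 332, fibroblast markers (*Cped1* highest) 1164 and 1100, and inhibitory neuron markers 139 and 122. Astrocyte markers (*Slc1a2* highest) read 779 and 1606 CPM, and 813 and 848 without putative doublets and nuclei over 10000 UMIs. Macrophage, T cell, ependymal and oligodendrocyte precursor markers stayed under 100 CPM in each library. The profile of all other nuclei was also subtracted from the sum of all 288 members. It was scaled until the neuronal genes *Rbfox3*, *Snap25* and *Syt1* summed to 0 (28.5% of PS19 and 35.8% of PZKO member UMIs). All members include nuclei that clustered with excitatory neurons, and excitatory neuron markers read 1518 and 2110 CPM over them. The scale takes in RNA of such nuclei and does not describe the mural cluster. After the subtraction the log2 ratio over all members was -3.91 for *Ttr*, -1.22 for *B2m* and 0.29 for *Abcc9*, against -3.78, -1.27 and 0.13 before.

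Some extreme ratios of the cluster depended on putative doublets and nuclei over 10000 UMIs, but not those of *Ttr* or *Adamtsl1*, which were -2.93 and 4.61 without them. *Tenm2*, a synaptic adhesion gene, counted 161 and 30 UMIs, a log2 ratio of -2.77, but 1 PS19 nucleus held 87.6% of its PS19 UMIs, and the log2 ratio was 0.09 (-0.81 to 1.02) after the same exclusion. *Gpc5*, an astrocyte glypican, went from 4.31 (3.15 to 5.77) to -1.0 (-3.27 to 1.07) after it, and 1 of the PZKO nuclei held 62.9% of its UMIs there. In the 95 PS19 and 112 PZKO nuclei left by that exclusion, 2428 genes had at least 50 UMIs, of which 9.6% were at least 1.5-fold higher and 7.78% lower. The highest by the near end of the interval that did not depend on contractile nuclei were *Fndc3b*, a fibronectin type III domain protein, with 27 UMIs over 23 PS19 nuclei and 98 over 53 PZKO nuclei of the cluster, a log2 ratio of 1.51 (0.89 to 2.18), and *Cbfa2t2*, a transcriptional corepressor, with 12 and 60 UMIs in 11 and 35 nuclei, a log2 ratio of 1.97 (1.07 to 3.0). Both kept their ratio in non-contractile nuclei, at 1.57 (0.87 to 2.33) and 1.80 (0.83 to 2.90), and read 0.11 and 0.06 in all other nuclei. Among the lowest, *Itih5*, which encodes a hyaluronan-binding protein, counted 73 and 43 UMIs in 26 and 24 nuclei, a log2 ratio of -1.11 (-1.69 to -0.55) beside -0.14 in all other nuclei.

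Over all 288 rule members the most extreme ratios came mostly from nuclei outside the mural cluster. Of 4798 genes with at least 50 UMIs, 592 were at least 1.5-fold higher in PZKO (12.3%) and 562 at least 1.5-fold lower (11.7%), and with edgeR's TMM scaling the genes past 1.5-fold, higher or lower in PZKO, numbered 770 and 355. The highest included *Vwc2l* (2 and 168 UMIs), *Ranbp3l* (15 and 457 UMIs), *Dpp10* (40 and 838 UMIs) and *Hs3st4* (16 and 390 UMIs), and in the mural cluster *Vwc2l* counted 2 and 1, *Ranbp3l* 0 and 1, *Dpp10* 13 and 16 and *Hs3st4* 11 and 21. The lowest included *Ttr*, *Reln* (97 and 8 UMIs), *Adarb2* (47 and 4 UMIs) and *Enpp2* (132 and 59 UMIs), of which *Reln* counted 10 and 3 and *Adarb2* 2 and 3 UMIs in the mural cluster. Further pericyte genes had a median log2 ratio of -0.26 over all members, beside 0.05 in the cluster, and -0.07 over all 11229 genes with at least 10 UMIs. The contractile list had a positive median in both, at 0.71 over all members and 1.11 in the cluster. Medians over all members for the other lists were -0.09 for angiopoietin and VEGF signaling, -0.46 for TGF-beta and BMP signaling, -0.22 for Notch signaling, -0.36 for PDGF signaling, -0.33 for cytokines and adhesion, -0.22 for interferon-stimulated genes and -0.43 for ZBP1 and necroptosis. They were -0.71 for antigen presentation (9 of 9 below 0), -0.85 for immediate early and stress genes, -0.61 for oxidative phosphorylation, -0.64 for ribosomal proteins, -0.18 for solute carriers, 0.32 for ion channels and 0.67 for nuclear long noncoding RNAs. Without the rule gene that each holds, the medians were -0.15 for PDGF signaling, -0.16 for Notch signaling, -0.19 for solute carriers (without *Atp13a5*) and 0.32 for ion channels.

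**Figure D4:**
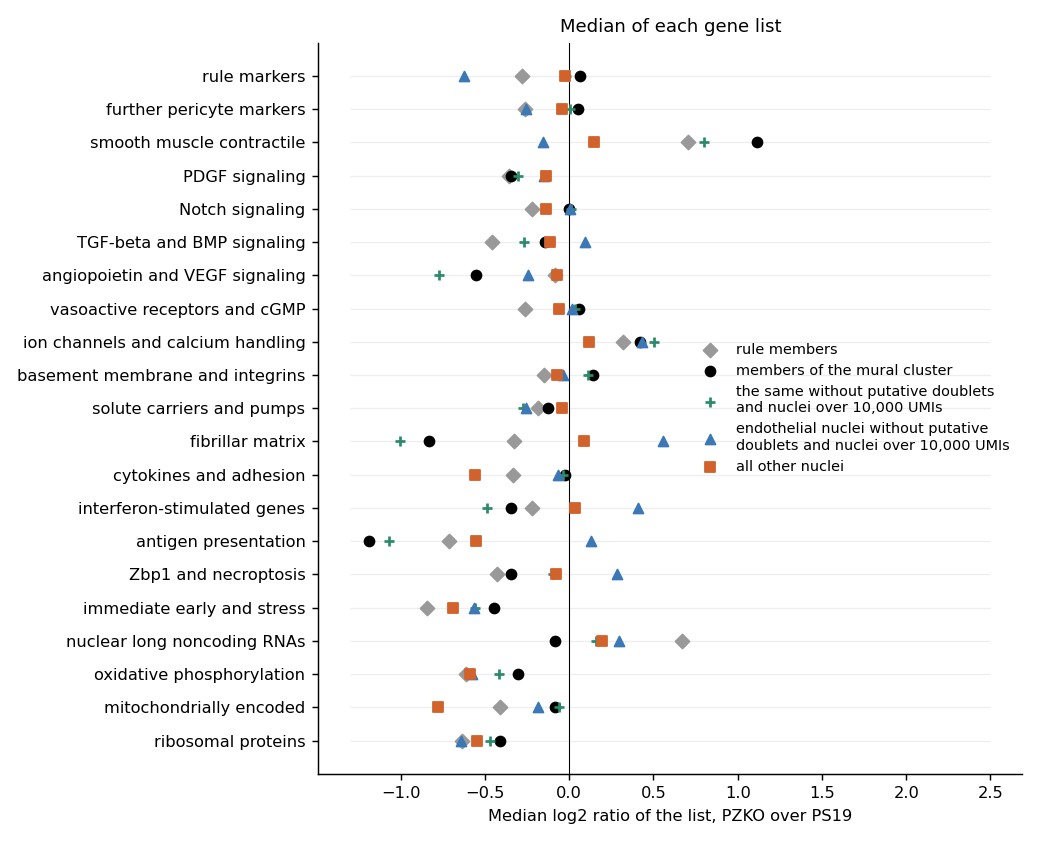
Median log2 ratio of PZKO over PS19 for each of 21 gene lists in 5 sets of nuclei, which are all rule members (diamonds), those in the mural cluster (circles), the same without putative doublets and nuclei over 10000 UMIs (plus signs), endothelial nuclei with the same exclusion (triangles) and all other nuclei (squares). Contractile genes stand to the right in the 3 mural sets and ribosomal and stress genes to the left in all 5, while antigen presentation genes stand to the left in all but the endothelial nuclei.

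Endothelial nuclei, chosen by the mirror of the mural rule (314 in PS19 and 324 in PZKO), offered the closest comparison in the vessel wall. This set was not limited to a cluster, and nuclei over 10000 UMIs, 22 in PS19 and 18 in PZKO, held 30.4% and 27.3% of its UMIs. Excitatory neuron markers read 1970 and 2248 CPM in it. Without putative doublets and those deep nuclei, 275 PS19 and 279 PZKO nuclei remained, and the neuron markers read 1218 and 1371 CPM. The median of the contractile list went from 2.38 to -0.15 (6 genes), and the *Acta2* counts from 6 and 105 UMIs to 6 and 2. *Cacna1c* went from -0.74 to 0.45 (-0.41 to 1.35), beside 0.52 in the mural cluster. *Slc22a8* was at 0.01 and -0.14 (-0.52 to 0.23) without them, beside -0.80 in the mural cluster, and *Prkg1* at -0.21 and -0.074 (-0.17 to 0.022), beside 0.34. No test can weigh these differences between cell classes with 1 library per genotype.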

How the data were processed

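Nuclei were isolated from hippocampus and profiled by droplet single-nucleus RNA sequencing. Per the labels the authors used Cell Ranger 7.0.1 with mm10, whereas the matrix header names 8.0.1, and the deposited values are UMI counts per gene and barcode (11469 PS19 and 10920 PZKO barcodes, 116488513 and 171167884 UMIs). From them, UMIs were summed over chosen nuclei per library and given as CPM, with log2 ratios of PZKO over PS19 and exact (Clopper-Pearson) 95% intervals. Genes needed at least 50 UMIs in both libraries together to be counted past 1.5-fold and at least 10 to enter a list median. With 1 library per genotype no test was run. Clustering used scanpy 1.11.5 (2000 variable genes, 30 components, 20 neighbours, Leiden resolution 1). Putative doublets were the nuclei with the highest Scrublet scores (876 PS19, 821 PZKO nuclei) and were kept unless stated. Their number was set by an assumed rate of 0.8% per 1000 nuclei and is not a measured doublet rate. Per-nucleus shares were also computed after thinning to 1000 UMIs. Interval coverage was tested on simulated data, but no result of that test is given here. Members and gene lists were chosen with earlier results of these data known. Named genes were the rule genes, *Zbp1*, in each list the 3 with most UMIs and the 2 with intervals farthest from 0, the 8 highest and 8 lowest genes, and the 20 most member-enriched. *Myl9*, *Tagln* and the top genes of other cell types' markers were added after their values were seen. After the values were seen, this rule was also applied to the mural cluster, with and without doublets and deep nuclei. The split between contractile and other nuclei, exclusion of nuclei over 10000 UMIs (endothelial nuclei included) and lists without rule genes were alternatives also chosen then, beside other filters, thresholds and scalings (edgeR 4.0.16, DESeq2 1.42.0). Some genes are not reported here.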

Additional observations from a re-analysis of the deposited data

Results flagged for a closer look

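*Fgf13* had a log2 ratio of PZKO over PS19 of 4.17 (2.56 to 6.48) in the mural cluster without putative doublets and nuclei over 10000 UMIs and of -0.18 in endothelial nuclei, which is what drew attention to it. The difference was not tested, and with the same exclusion the endothelial ratio was 1.09 (0.84 to 1.34), the same direction as in the mural cluster. It counted 3 UMIs in PS19 and 72 in PZKO in the first set, and 3 and 69 of the cluster's UMIs lay in contractile nuclei. Over all members of the cluster the counts were 22 and 75 UMIs in 7 and 15 nuclei, a log2 ratio of 1.42 (0.72 to 2.18).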

How the results depend on the processing

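No paired analysis was possible because each genotype has 1 library. Shares of members in PS19 and PZKO were 1.11% and 1.02% with a stricter quality filter and 1.33% and 1.31% without members over 10000 UMIs (the order of the libraries turned in both), 1.003% and 1.14% with a rule-gene sum of at least 20, 0.869% and 0.968% with at least 50, 0.984% and 1.16% in the mural cluster, 0.898% and 0.948% there without contractile nuclei, 0.908% and 1.11% there without putative doublets and nuclei over 10000 UMIs, and 3.54% and 3.96% when nuclei were thinned to 1000 UMIs before the rule. Genes at least 1.5-fold higher and lower in PZKO numbered 319 and 277 with a sum of at least 20, 182 and 155 with at least 50, 268 and 245 in the mural cluster, 198 and 178 there without contractile nuclei, 233 and 189 there without doublets and deep nuclei, 233 and 263 after thinning, 309 and 178 with at least 100 UMIs, 2574 and 4128 with at least 1 UMI in each library, and 251 and 139 at a fold of 2. Fewer genes are tested in each of the smaller sets. Thinning before the rule widens the set, because a single rule-gene UMI then reaches the threshold. It took 359 PS19 and 393 PZKO nuclei, beside 142 and 146 by the main rule. The higher genes numbered 318 when members over 10000 UMIs were left out, and 11 rather than 18 list medians were below 0. The lower genes numbered 355 with TMM scaling and 366 with DESeq2 size factors, which shifted all log2 ratios by 0.12 and 0.11.

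Of 377 list medians and 2272 named-gene values under the alternatives, 45 and 289 had the opposite sign to the value over all members, and the cause was not tested. In the mural cluster 6 of 21 list medians and 31 of 150 gene values did, among them the medians of the rule markers (-0.28 to 0.06), further pericyte markers (-0.26 to 0.05), vasoactive (-0.26 to 0.06) and basement membrane genes (-0.15 to 0.14), and *Ebf1* (-0.18 to 0.13) and *Cdh18* (0.27 to -4.003, with all 63 PS19 UMIs in 1 nucleus). Those at least 1.5-fold over all members, with an interval clear of 0 for a gene, were as follows. With a sum of at least 20 the nuclear long noncoding RNA median was -0.13, *Cntn5* -3.94, *Kcnip4* -0.35, *Meg3* -1.27, *Rian* -0.44 and *Tenm2* -2.90. With at least 50, which leaves out most contractile nuclei, *Acta2* was -0.96, *Bmp6* -1.64, *Myh11* -0.034, *Nkain3* 2.10, *Sox2ot* 2.36 and *Tenm2* -0.015. In the mural cluster the noncoding median was -0.085, *Cntn5* -3.87 (95.7% of its PS19 UMIs in 1 nucleus, and 0.58 from 2 and 4 UMIs without doublets and deep nuclei), *Dpp10* -0.048, *Kcnip4* -0.67, *Meg3* -1.37, *Rian* -0.55 and *Tenm2* -2.77. There without contractile nuclei the noncoding median was -0.20, *Cntn5* -4.14, *Dpp10* -0.082, *Kcnab1* -0.20, *Kcnip4* -0.88, *Kcnma1* -0.046, *Meg3* -1.36, *Myh11* -0.28, *Rian* -0.31, *Ryr2* -0.46, *Tenm2* -2.93 and *Thsd4* -0.20. There without doublets and deep nuclei *Nkain3* was 1.91 and *Sox2ot* 1.58. Without members over 10000 UMIs *Cadm2* was -0.25, *Cntn5* -1.03 and *Tenm2* -0.12. After thinning, over the wider set that it gives, *Bmp6* was -1.03, *Nkain3* 0.73, *Nrp1* 0.23, *Ranbp3l* -0.89, *Slc30a10* 0.41, *Trpm3* -0.50 and *Vwc2l* -0.49. As a mean over nuclei *Tbx2* was 0.035. In endothelial nuclei without putative doublets and nuclei over 10000 UMIs *Acta2* was -1.72 and *Cacna1c* 0.45. *Abcc9* ranged from -0.17 after thinning, over that wider set, to 0.62 with a sum of at least 50. It was 0.29 over all members after the profile of all other nuclei was subtracted. Depth limits every gene under about 50 UMIs, and a summed fold cannot show how mice within a pool differ.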
